A study of Sus scrofa with 16 samples.

Results

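The genes of Mediator subunits were examined in whole pituitaries of 16 Złotnicka White gilts, a native Polish breed, of which 8 had low feed conversion (LFC pigs) and 8 had high feed conversion (HFC pigs). All pigs were female, from different farms and unrelated. They were fed and housed alike at 1 test station and were given day 180 in the labels. The authors ended the test at a set body weight, so the age at slaughter varied. By their measurements, the HFC pigs spent longer in the test, gained less per day and had more fat at several carcass points. These traits therefore run with the groups and cannot be told apart from feed conversion. The labels name no treatment and no engineered allele, and the groups were formed by the measured trait, so the comparison is one of selected animals. Members were all genes whose symbol in the deposited comparison starts with MED and a digit, together with CDK8, CDK19 and CCNC. The rule found 28 genes of the 25880 with deposited counts, and all 28 had at least 10 counts in 8 or more pigs, as did 13667 genes in all. MED17 and MED26 carry no symbol in that table, and MED12L is absent from it and so has no span-corrected value. MED12L, MED17 and MED26 were named through the reference gene table, so they are given beside the members but not counted. MED18 and MED29 were not analysed here.

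Mediator is a large complex that joins transcription factors bound at enhancers and promoters to RNA polymerase II, and nearly all transcription by this polymerase needs it. Its head and middle modules contact the polymerase, its tail is the main target of activators, and MED14 is the backbone that holds the modules together. A separable kinase module of MED12, MED13, cyclin C and CDK8 or CDK19 binds the core reversibly and can block or promote its contact with the polymerase. In the pituitary, where thyroid hormone, oestrogen and glucocorticoids feed back on hormone genes, MED1 is known as the subunit that binds nuclear receptors.

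The counted reads per pig numbered 6010629 to 11794256, and each member had between 31 and 1729 counts per pig (median 231). Expression is given as CPM, counts relative to the TMM-scaled library size. Exonic lengths were not used here, so CPM values are compared between pigs and not between genes. In LFC replicates 4 and 6 and HFC replicate 5, long genes had low expression relative to short genes: the slope of log2(CPM + 1) on the log10 of gene span lay between -0.27 and -0.21, against -0.07 to 0.21 in the other 13 pigs. Results are therefore also given without these 3 pigs, a choice made after their values were seen. Of 8 anterior pituitary markers 6 were found by symbol among the genes tested (PRL, GH1, CGA, POU1F1, LHX3 and TBX19). They summed to 79525 to 132190 CPM in the LFC pigs and 90678 to 200491 CPM in the HFC pigs. PITX1 and POMC were not found by symbol, so the sum leaves them out, although the paper reports POMC in this breed. Within this sum, PRL of the lactotrophs had a log2 fold change (HFC over LFC) of 1.29, CGA of the gonadotrophs and thyrotrophs of -0.55 and TBX19 of the corticotrophs of -0.51. Their unadjusted p-values in edgeR were 1.56e-04, 0.0499 and 0.0195, and the adjusted ones 0.318, 0.435 and 0.397, so none was called. GH1 had 0.06, POU1F1 0.09 and LHX3 0.01, with unadjusted p-values in edgeR of 0.810, 0.554 and 0.887. The glial markers GFAP and MBP, which mark the posterior lobe, summed to 114 to 4353 CPM in the LFC pigs and 106 to 2597 CPM in the HFC pigs. The blood and endothelium markers HBB, PECAM1 and CDH5 summed to 710 to 1452 CPM in the 3 low-slope pigs and 143 to 877 CPM in the other 13. Their median sum was 495 CPM for LFC and 259 CPM for HFC pigs, and HBB had a log2 fold change of -1.04 (unadjusted p = 0.0531 in edgeR). HBB had the highest group means of these markers (577 CPM in LFC and 281 CPM in HFC pigs). The endothelial markers PECAM1 and CDH5 had the other sign, at 0.08 and 0.45 (unadjusted p = 0.620 and 0.0390 in edgeR). Macrophage markers (C1QA, C1QB and CSF1R) summed to 138 to 232 CPM in the LFC pigs and 76.3 to 283 CPM in the HFC pigs. The 9 mitochondrially encoded genes summed to 20560 to 37589 CPM in the LFC pigs and 26486 to 50090 CPM in the HFC pigs. No marker that was tested was at 0 in a whole group, and the part of other cell types in the values below was not tested.

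No Mediator gene differed between the HFC and LFC pigs at an adjusted p of 0.05 or less with a fold change of 1.3 or more. The adjusted p-values of the 28 genes lay between 0.397 and 0.903 (quasi-likelihood test of edgeR, adjusted by Benjamini-Hochberg), and 0.0% of the 13667 genes tested were called. In DESeq2, 0 of the 28 were called, against 0.212% of all genes tested. The paper, with DESeq2 at the same thresholds, lists MED12, MED13L, MED14, MED21 and CCNC among its differentially expressed genes of this breed. None of these genes was called here with either tool. Of all 13667 genes tested here, DESeq2 called 29. The paper reports a far longer list for this breed, so the difference is not confined to Mediator genes. The reason for this difference was not tested. At an unadjusted p of 0.05 or less, 6 members were higher in the HFC pigs, where 8.01% of all genes tested were, and these were MED12, MED13, MED13L, MED14, MED16 and MED1. In the other direction 2 members, MED8 and MED10, were higher in the LFC pigs at this level, where 3.47% of all genes tested were. The values of the groups overlapped for each of the 28 members, while 0.0293% of all genes tested had groups that did not overlap. In whole tissue, fewer cells of a type and less RNA per cell cannot be told apart.

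By the sign of the log2 fold change (HFC over LFC), 13 members were higher in the HFC pigs and 15 in the LFC pigs, with a median of -0.05 against 0.01 over all genes tested. These signs stood under TMM, RLE, upper-quartile and total library scaling alike. Over all genes, 69.8% of those at an unadjusted p of 0.05 or less were higher in the HFC pigs with TMM scaling, against 65.0%, 51.9% and 45.9% with the other 3 scalings. Of the members, 6 were higher in the HFC pigs and 2 in the LFC pigs at that level with TMM and RLE, 6 and 4 with upper-quartile scaling, and 3 and 5 with total library scaling. The count of 6 became 3 without LFC replicate 4 and also without HFC replicate 4. The count of 2 became 9 without HFC replicate 5, 5 without LFC replicate 7 and 4 without LFC replicate 2. Without the 3 low-slope pigs 0 members were called, as for 0.0% of all 13545 genes tested. In that comparison the 6 genes named above were again higher in the HFC pigs at an unadjusted p of 0.05 or less, beside 7.81% of all genes tested, and MED8, MED6 and CCNC were higher in the LFC pigs, beside 6.78%. The 95% confidence intervals of the members' log2 fold changes extended between 0.16 and 0.44 to either side, with a median of 0.30.

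**Figure D1:**
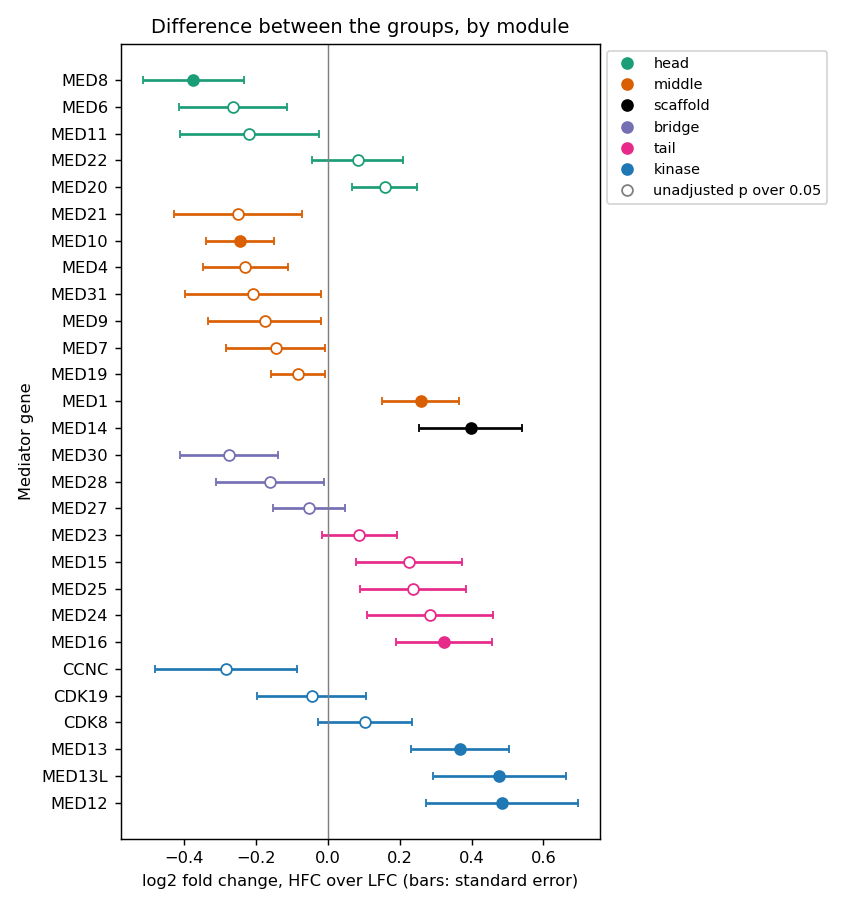
Log2 fold change (HFC over LFC, horizontal axis) of each of the 28 Mediator genes, with its standard error as a bar and the module as colour; filled points have an unadjusted p of 0.05 or less in edgeR. All 5 tail genes lie right of 0 and 7 of the 8 middle genes lie left of it.

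The modules differed in direction, while 51.1% of all genes tested were higher in the HFC pigs. All 5 tail genes were higher in the HFC pigs (median log2 fold change 0.24), as was MED14 (0.40), while 7 of the 8 middle genes and all 3 genes of the head-tail bridge were higher in the LFC pigs (medians -0.19 and -0.16). The 5 head genes had 2 members higher in the HFC pigs and 3 in the LFC pigs (median -0.22), and the 6 kinase genes had 4 and 2 (median 0.24). Without the 3 low-slope pigs the medians were 0.16 for the tail, 0.35 for MED14, -0.16 for the middle, -0.16 for the bridge, -0.24 for the head and 0.22 for the kinase module. After correction of each pig for its trend on gene span, the medians in the same order were 0.25, 0.35, -0.13, -0.17, -0.14 and 0.14. By the deposited spans, MED7, MED9, MED10, MED21 and MED31 of the middle module span less than 10 kb. In RefSeq MED21 spans 32.1 kb, and MED19, with a deposited span of 35.9 kb, spans 9.51 kb. Of other genes of up to 10 kb, 32.0% were higher in the HFC pigs, so module and gene span partly run together. These are descriptions of 1 to 8 genes each, and the difference between modules was not tested.

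In the kinase module MED12, MED13 and MED13L had an unadjusted p of 0.05 or less, and CDK8, CDK19 and CCNC did not. The difference between these genes was not tested, and their 95% intervals overlapped. MED12, which activates the kinase together with cyclin C, had the largest log2 fold change of the members. It (ENSSSCG00000012396, chromosome X, 57150204 to 57174138, Sscrofa11.1) had 26.1, 55.5 and 85.7 CPM as the lowest, median and highest value of the LFC pigs, and 38.1, 78.2 and 102 CPM in the HFC pigs. The lowest values of the groups came from LFC replicate 6 and HFC replicate 5, and 7 of the 8 HFC pigs were above the LFC median. The means were 54.9 ± 18.9 and 76.9 ± 20.1 CPM (SD, n = 8 in each group). The log2 fold change was 0.48 (SE 0.21), with an unadjusted p of 0.0341 and an adjusted p of 0.416 in the quasi-likelihood test of edgeR, adjusted by Benjamini-Hochberg. Without the 3 low-slope pigs it was 0.39.

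MED13 and MED13L are paralogues that tie the kinase module to the core complex. MED13 (ENSSSCG00000017672, chromosome 12, 36333191 to 36429291) ran from 24.4 over a median of 28.6 to 36.6 CPM in the LFC pigs and from 26.8 over 37.9 to 54.4 CPM in the HFC pigs. Its 4 highest values were those of HFC replicates 1 to 4, all above the highest LFC pig. The means were 29.9 ± 4.29 and 38.6 ± 9.40 CPM (SD, n = 8 in each group), and the log2 fold change was 0.37 (SE 0.14, unadjusted p = 0.0149 in edgeR, 0.35 without the 3 pigs). MED13L (ENSSSCG00000009864, chromosome 14, 36063644 to 36383803) ran from 20.5 over 35.9 to 50.5 CPM in the LFC pigs and from 29.4 over 50.1 to 64.4 CPM in the HFC pigs. Here too HFC replicates 1 to 4 were above the highest LFC pig, and LFC replicates 4 and 6 were the lowest of all. The means were 34.4 ± 9.64 and 48.0 ± 12.6 CPM (SD, n = 8 in each group), and the log2 fold change was 0.48 (SE 0.18, unadjusted p = 0.0184 in edgeR, 0.38 without the 3 pigs). Both genes had an adjusted p of 0.397 in the same edgeR test with Benjamini-Hochberg adjustment.

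The kinases themselves showed small differences. CDK8 (ENSSSCG00000009298, chromosome 11, 4053945 to 4218593) ran from 12.4 over 14.4 to 20.3 CPM in the LFC pigs and from 11.0 over 17.5 to 19.6 CPM in the HFC pigs, where HFC replicate 5 held the lowest value. With means of 15.6 ± 2.88 and 16.7 ± 2.83 CPM (SD, n = 8 in each group), its log2 fold change was 0.10 with a 95% interval from -0.17 to 0.38. CDK19 (ENSSSCG00000037424, chromosome 1, 76589052 to 76793931), the paralogue that takes the same place in the module, ran from 11.97 over 13.7 to 17.3 CPM in the LFC pigs and from 8.18 over 15.4 to 17.3 CPM in the HFC pigs. Its lowest values were in HFC replicates 3 and 8, which were at 8.18 and 9.33 CPM. The means were 14.4 ± 2.09 and 14.0 ± 3.38 CPM (SD, n = 8 in each group), and the log2 fold change was -0.05 with an interval from -0.37 to 0.28. The adjusted p was 0.722 for CDK8 and 0.903 for CDK19 in the quasi-likelihood test of edgeR, adjusted by Benjamini-Hochberg. When 1 pig was left out, the value of CDK8 lay between 0.05 (without HFC replicate 4) and 0.17 (without HFC replicate 5), and that of CDK19 turned its sign without HFC replicate 3 (0.01) and without HFC replicate 8 (0.02).

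CCNC, which encodes the cyclin partner of both kinases, had the opposite sign to MED12 and MED13. It (ENSSSCG00000004353, chromosome 1, 66471793 to 66499216) ran from 39.1 over 53.2 to 86.0 CPM in the LFC pigs and from 31.9 over 41.0 to 88.8 CPM in the HFC pigs. The highest values of both groups were those of low-slope pigs, LFC replicate 4 and HFC replicate 5. The means were 55.6 ± 14.7 and 45.8 ± 18.3 CPM (SD, n = 8 in each group). The log2 fold change was -0.28 (SE 0.20), and -0.35 without the 3 low-slope pigs, with unadjusted p-values of 0.166 and 0.0135 in edgeR. It was -0.17 without LFC replicate 4 alone and -0.49 without HFC replicate 5 alone. MED12L (ENSSSCG00000011714), the paralogue of MED12 that was named by the reference table and is not counted, had 14.5 ± 4.12 CPM in the LFC pigs and 22.5 ± 7.44 CPM in the HFC pigs (SD, n = 8). It ran from 10.03 over 13.3 to 23.1 CPM and from 10.8 over 23.9 to 34.0 CPM, with the lowest values again in LFC replicate 6 and HFC replicate 5. Its log2 fold change of 0.64 (SE 0.21, unadjusted p = 0.00646) was above that of each member, with an adjusted p of 0.396 in edgeR's test with Benjamini-Hochberg adjustment.

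**Figure D2:**
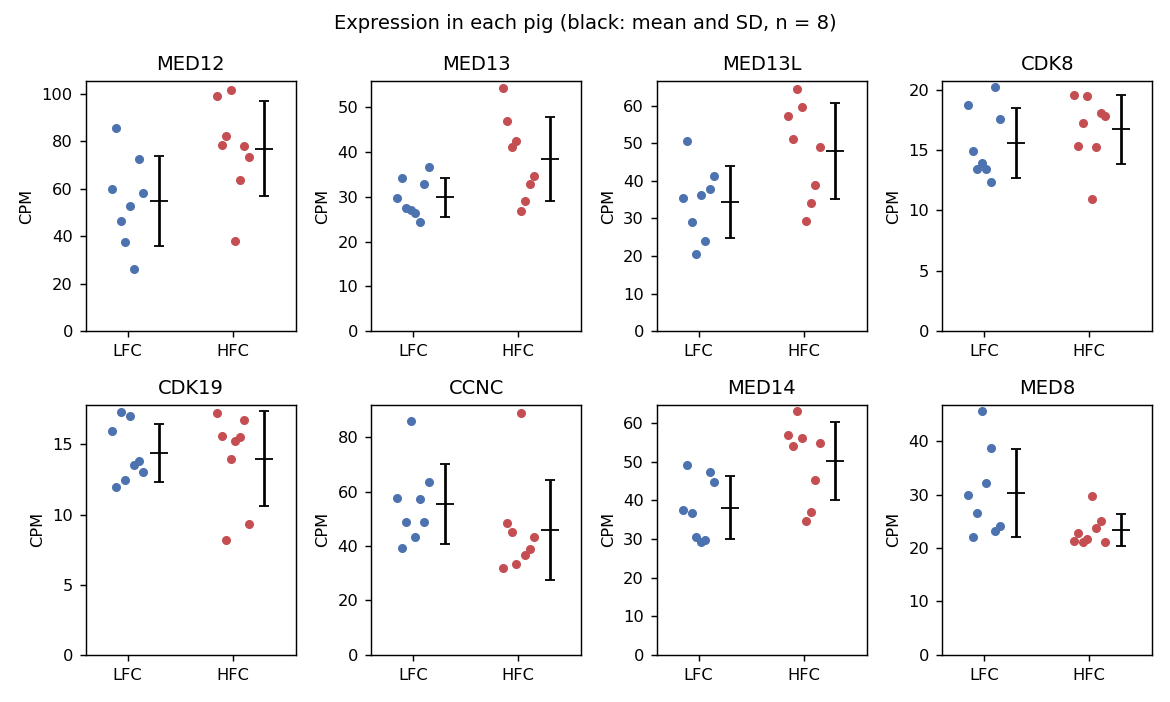
CPM (vertical axes, starting at 0) of 8 Mediator genes in each LFC pig (blue) and HFC pig (red), with the mean and SD of 8 pigs in black. The groups overlap in each panel, and CCNC holds 1 pig per group (86.0 and 88.8 CPM) well above the rest.

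The balance between paralogues was compared in each pig as the difference of their log2(CPM + 1). CDK8 minus CDK19 was 0.10 ± 0.33 in LFC and 0.26 ± 0.48 in HFC pigs (SD, n = 8), a difference of 0.16 (exact two-sided permutation test, p = 0.446). MED12 minus MED12L was 1.81 ± 0.26 and 1.75 ± 0.19, a difference of -0.07 (exact p = 0.566). MED13 minus MED13L was -0.16 ± 0.29 and -0.30 ± 0.21, a difference of -0.14 (exact p = 0.296). The adjusted p of each of the 3 comparisons was 0.566, and no difference was larger than the SD of its groups.

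MED14, the backbone of the complex, had the smallest unadjusted p of the members. It (ENSSSCG00000012250, chromosome X, 36354044 to 36424759) ran from 29.3 over 37.1 to 49.1 CPM in the LFC pigs and from 34.8 over 54.4 to 63.1 CPM in the HFC pigs. HFC replicates 5, 6 and 7 lay within the range of the LFC pigs, and 6 of the 8 HFC pigs were above the LFC median. The means were 38.1 ± 8.08 and 50.2 ± 10.1 CPM (SD, n = 8 in each group). The log2 fold change was 0.40 (SE 0.14), with an unadjusted p of 0.0122 and an adjusted p of 0.397 in the quasi-likelihood test of edgeR, adjusted by Benjamini-Hochberg.

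In the middle module MED1 was the only gene higher in the HFC pigs. MED1 (ENSSSCG00000017505, chromosome 12, 22830449 to 22874698), through which nuclear receptors contact Mediator, ran from 32.6 over 42.4 to 52.8 CPM in the LFC pigs and from 38.8 over 50.9 to 56.8 CPM in the HFC pigs. In 7 of the 8 HFC pigs it was above the LFC median, and HFC replicate 5 was the one below. The means were 41.8 ± 7.26 and 50.0 ± 5.68 CPM (SD, n = 8 in each group), and the log2 fold change was 0.26 (SE 0.11, unadjusted p = 0.0263 in edgeR). Its listed span overlaps CDK12 and FBXL20, and the libraries did not keep the strand, so reads from shared bases cannot be assigned to 1 gene. MED24 lies 498 kb away on the same chromosome.

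The other middle genes encode small subunits and were higher in the LFC pigs. MED10 (ENSSSCG00000017106, chromosome 16, 75517023 to 75524760) ran from 15.03 over 20.1 to 22.8 CPM in the LFC pigs and from 14.1 over 16.9 to 19.0 CPM in the HFC pigs, and all 8 HFC pigs lay under the LFC median. The means were 20.0 ± 2.45 and 16.9 ± 1.53 CPM (SD, n = 8 in each group), and the log2 fold change was -0.25 (SE 0.10, unadjusted p = 0.0192 in edgeR). MED21 (ENSSSCG00000000552, chromosome 5, 46730210 to 46736376), which pairs with MED7 in the hinge of the module, had the lowest log2 fold change of the middle genes. It ran from 29.0 over 38.8 to 62.8 CPM in the LFC pigs and from 20.7 over 33.0 to 57.8 CPM in the HFC pigs, with its highest values in LFC replicate 4 and HFC replicate 5. The means were 41.0 ± 10.6 and 34.6 ± 10.6 CPM (SD, n = 8 in each group), and the log2 fold change was -0.25 (SE 0.18, unadjusted p = 0.176 in edgeR). It was -0.14 without LFC replicate 4 and -0.39 without HFC replicate 5. MED4 had a log2 fold change of -0.23, MED31 of -0.21, MED9 of -0.18, MED7 of -0.15 and MED19 of -0.08. Without LFC replicate 4 MED31 had -0.12 and MED7 -0.09, without HFC replicate 5 they had -0.36 and -0.25, and MED31 had -0.14 without LFC replicate 6. MED9 had -0.10 without LFC replicate 3 and -0.30 without LFC replicate 7, and MED19 had -0.05 without LFC replicate 6 and -0.14 without HFC replicate 3. MED26, named by the reference table and known to recruit elongation factors, had a log2 fold change of -0.05.

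In the head module MED8 had the largest difference of any member towards the LFC pigs. MED8 (ENSSSCG00000003943, chromosome 6, 167861384 to 167868633), which joins the movable jaw of the head to its core, ran from 22.1 over 28.3 to 45.6 CPM in the LFC pigs and from 21.2 over 22.3 to 29.7 CPM in the HFC pigs. The low-slope pigs LFC replicates 4 and 6 were the highest of all, at 45.6 and 38.8 CPM, and HFC replicate 5 was the highest of its group. The means were 30.3 ± 8.27 and 23.4 ± 2.93 CPM (SD, n = 8 in each group). The log2 fold change was -0.37 (SE 0.14, unadjusted p = 0.0157 in edgeR), and -0.24 (unadjusted p = 0.0252) without the 3 low-slope pigs, a move by a factor of over 1.5. Its adjusted p was 0.397 in the same test. MED20 (ENSSSCG00000038520, chromosome 7, 37062299 to 37074150), a subunit of the same jaw, ran the other way. It went from 11.8 over 16.01 to 17.4 CPM in the LFC pigs and from 16.1 over 17.4 to 18.9 CPM in the HFC pigs, all 8 of which were above the LFC median. The means were 15.6 ± 1.81 and 17.4 ± 0.93 CPM (SD, n = 8 in each group), and the log2 fold change was 0.16 (SE 0.09, unadjusted p = 0.0952 in edgeR). MED6 had a log2 fold change of -0.26 and MED11 of -0.22, both with HFC replicate 5 as the highest pig of its group, while MED22, the partner of MED11, had 0.08. Without HFC replicate 5 MED6 had -0.42 and MED11 -0.39, and without LFC replicate 4 MED11 had -0.10. MED22 was lowest, at 0.03, without HFC replicate 4. MED17, named by the reference table and known as the centre of the head, had -0.05.

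The tail genes, whose products meet activators, were all higher in the HFC pigs. MED16 (ENSSSCG00000013416, chromosome 2, 77490710 to 77530735) ran from 21.2 over 36.0 to 42.6 CPM in the LFC pigs and from 30.9 over 43.0 to 49.0 CPM in the HFC pigs, 7 of which were above the LFC median. The means were 34.2 ± 7.57 and 42.8 ± 5.82 CPM (SD, n = 8 in each group), and the log2 fold change was 0.32 (SE 0.13, unadjusted p = 0.0256 in edgeR, 0.22 without the 3 low-slope pigs). MED23 (ENSSSCG00000004196, chromosome 1, 31960024 to 32001581), a target of the factor ELK1, had the smallest difference of the tail. It ran from 37.3 over 40.4 to 57.0 CPM in the LFC pigs and from 37.9 over 46.3 to 55.6 CPM in the HFC pigs. The means were 44.3 ± 7.54 and 47.1 ± 5.54 CPM (SD, n = 8 in each group), and the log2 fold change was 0.09 with a 95% interval from -0.13 to 0.31. It was 0.04 without the 3 low-slope pigs and 0.03 without HFC replicate 4. MED24 had a log2 fold change of 0.28, MED25 of 0.24 and MED15 of 0.23, with unadjusted p-values in edgeR of 0.123, 0.125 and 0.146. In the tail LFC replicate 6 was the lowest LFC pig for MED15, MED16, MED24 and MED25, and HFC replicate 5 the lowest HFC pig for the same genes. Without the 3 low-slope pigs MED24 had a log2 fold change of 0.16 and MED25 of 0.13. The bridge genes MED27, MED28 and MED30, known from Mediator of animals, had log2 fold changes of -0.05, -0.16 and -0.28, with unadjusted p-values in edgeR of 0.605, 0.301 and 0.0602. MED27 had -0.01 without LFC replicate 6 and -0.12 without HFC replicate 6, and MED28 had -0.11 without HFC replicate 4.

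**Figure D3:**
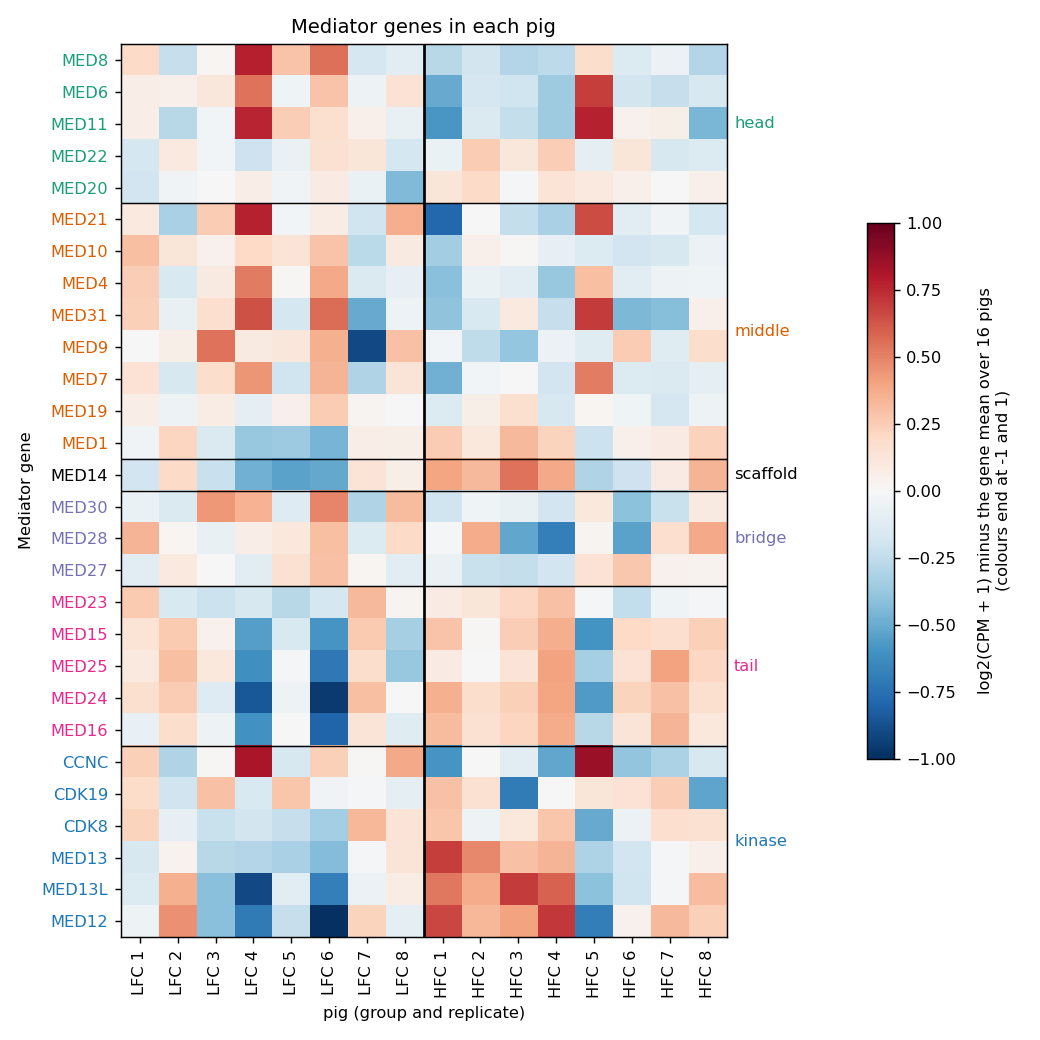
Log2(CPM + 1) of each Mediator gene (rows, by module) in each pig (columns, LFC left and HFC right of the black line), minus the gene's mean over 16 pigs; red is above and blue below the mean. LFC replicates 4 and 6 and HFC replicate 5 are red for CCNC, MED8 and MED31 and blue for MED12, MED24 and MED16.

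The pigs at the ends of each group were often the same. LFC replicate 4 or 6 was the lowest LFC pig for 11 members and the highest for 13, and HFC replicate 5 was the lowest HFC pig for 10 members and the highest for 9. Across the 16 pigs, log2(CPM + 1) of MED12 was compared with that of MED13L, MED13, CDK8 and CCNC of the kinase module. These belong to a family of 7 relations that includes the one with gene span below. MED12 was not compared with CDK19. Pairs of genes outside the module were not compared, so these relations cannot be called particular to the kinase module. With MED13L, Pearson's r was 0.899 (permutation p = 2e-05, adjusted 7e-05) and Spearman's rho was 0.918 (permutation p = 1e-05, adjusted 3.5e-05), where 1e-05 is the smallest p that 100000 resamples can give. With MED13, r was 0.821 and rho 0.862 (permutation p = 1.4e-04 and 6e-05, adjusted 3.27e-04 and 1.4e-04). With CDK8, r was 0.776 and rho 0.674 (permutation p = 3.4e-04 and 0.00474, adjusted 5.95e-04 and 0.00664). With CCNC the relation was negative, with r = -0.751 and rho = -0.765 (permutation p = 9.4e-04 and 8.4e-04, adjusted 0.00132 and 0.00147). Without LFC replicates 4 and 6, the pigs farthest from the median of MED12, these values of r were 0.871, 0.803, 0.747 and -0.783. Without the 3 low-slope pigs they were 0.855, 0.795, 0.591 and -0.638. Within the LFC pigs r was 0.882, 0.810, 0.668 and -0.541 (unadjusted exact permutation p = 0.00424, 0.0126, 0.0698 and 0.166). Within the HFC pigs r was 0.852, 0.810, 0.952 and -0.888 (unadjusted exact permutation p = 0.00250, 0.00722, 0.00159 and 0.0170). With CCNC, rho was -0.405 within the LFC pigs and -0.548 within the HFC pigs, where HFC replicate 5 had the highest CCNC value.

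CDK8 and CCNC had r = -0.552 and rho = -0.421 across the 16 pigs (permutation p = 0.0266 and 0.108, adjusted 0.0310 and 0.126). Without HFC replicate 5 and LFC replicate 6 the r was -0.304, so the relation rests on these pigs, and it was 0.00 within the LFC pigs, -0.92 within the HFC pigs and -0.09 without the 3 low-slope pigs. CDK8 and CDK19 had r = -0.149 and rho = 0.03 (permutation p = 0.582 and 0.927, the same after adjustment), with -0.135 without the 2 farthest pigs.

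The difference between the groups was also described against the span of the genes, from their first to their last base in Sscrofa11.1. The median span of the 28 members was 25.4 kb, between MED12 (23.9 kb) and MED6 (26.9 kb), with MED11 the shortest at 1.66 kb. Of the 14 members above the median, 9 were higher in the HFC pigs, with a median log2 fold change of 0.16. Of the 14 below it, 4 were (MED12, MED20, MED22 and MED25), with a median of -0.19. Other genes tested moved in the same directions: 59.1% of 5950 long genes were higher in the HFC pigs (median 0.05) and 39.1% of 4912 short genes (median -0.06).

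By class of span, the 9 members of up to 10 kb had a median log2 fold change of -0.21 with 1 higher in the HFC pigs, beside a median of -0.09 in other genes. The 7 members of over 10 to 30 kb had a median of -0.23 with 3 higher, beside -0.02, and the 7 of over 30 to 100 kb a median of 0.28 with 6 higher, beside 0.03. The 5 of over 100 kb, MED13L, CDK8, CDK19, MED27 and MED15, had a median of 0.10 with 3 higher, beside 0.11. Across the 28 genes the log2 fold change and the log10 of the span had r = 0.54 and rho = 0.56, and across 10862 other genes r = 0.28 and rho = 0.30, where genes share the same pigs and are no independent replicates. After correction of each pig for its trend on span, r over the members was 0.31 and rho 0.37, and without the 3 low-slope pigs 0.51 and 0.55. Spans differed by over 1.5 times between the deposited table and RefSeq for 4 members: MED15 (499 and 56.3 kb), MED21 (6.17 and 32.1 kb), MED19 (35.9 and 9.51 kb) and CDK8 (165 and 107 kb). With RefSeq spans r was 0.51 and rho 0.49. The listed span of MED15 holds 11 other genes, and 11 members in all overlap another listed gene.

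**Figure D4:**
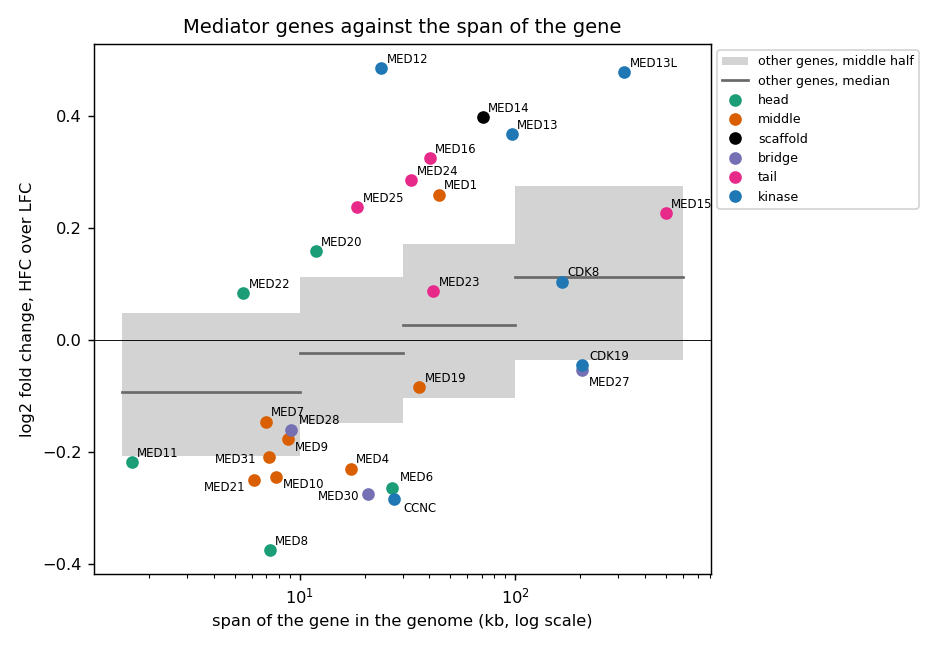
Log2 fold change (HFC over LFC) of the 28 Mediator genes against the span of the gene in kb (log scale), coloured by module; the grey bands hold the middle 50% of other genes tested in each class of span and the dark lines their medians. MED12 (23.9 kb, 0.48) lies far above the band of its class, while CDK8 (165 kb, 0.10) lies close to the median of its class (0.11).

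After correction of each pig for its trend on span, members moved in either direction. Of those higher in the HFC pigs, MED12 had a log2 fold change of 0.49, MED14 of 0.35, MED13 of 0.29, MED13L of 0.35, MED16 of 0.31 and MED1 of 0.24. Towards the LFC pigs, MED8 had -0.30 and MED10 -0.18, with unadjusted p-values of 0.0137 and 0.0920 in edgeR. Several small differences moved by over 1.5 times. MED15, whose listed span is in doubt, went from 0.23 to 0.08, CDK8 from 0.10 to -0.01, MED7 from -0.15 to -0.08, MED11 from -0.22 to -0.14, MED31 from -0.21 to -0.13 and MED28 from -0.16 to -0.10. Away from 0, CDK19 went from -0.05 to -0.17, MED27 from -0.05 to -0.17 and MED22 from 0.08 to 0.17.

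In each pig, the mean log2(CPM + 1) of the 14 long members minus that of the 14 short ones was taken, a value that is read between pigs only. It was 0.19 ± 0.25 in LFC and 0.39 ± 0.17 in HFC pigs (SD, n = 8), and the ranges, -0.18 to 0.57 and 0.05 to 0.64, overlapped. Over other genes split at the same span the values were -0.07 ± 0.13 and 0.03 ± 0.11. The group difference was 0.21 for the members and 0.10 for other genes, and 0.15 and 0.07 without the 3 low-slope pigs at unchanged scaling. The lowest 3 values, from -0.18 to 0.05, were those of the 3 low-slope pigs, and the other 13 pigs lay between 0.11 and 0.64. Across the 16 pigs this value and the slope of other genes on span had r = 0.960 and rho = 0.938 (permutation p = 1e-05 for both, adjusted 7e-05 and 3.5e-05). Among the LFC pigs r was 0.947 (exact permutation p = 7.19e-04, n = 8), and among those with high feed conversion it was 0.977 (exact permutation p = 4.22e-04, n = 8). Without LFC replicates 4 and 6, which were farthest from the median, r was 0.917, and without the 3 low-slope pigs it was 0.910. Both values set long against short genes in the same libraries, so these p-values do not show a trait particular to Mediator. For other genes, long minus short was -0.27 to -0.20 in the 3 low-slope pigs and -0.09 to 0.18 in the other 13. The part of RNA quality in these values was not tested.

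**Figure D5:**
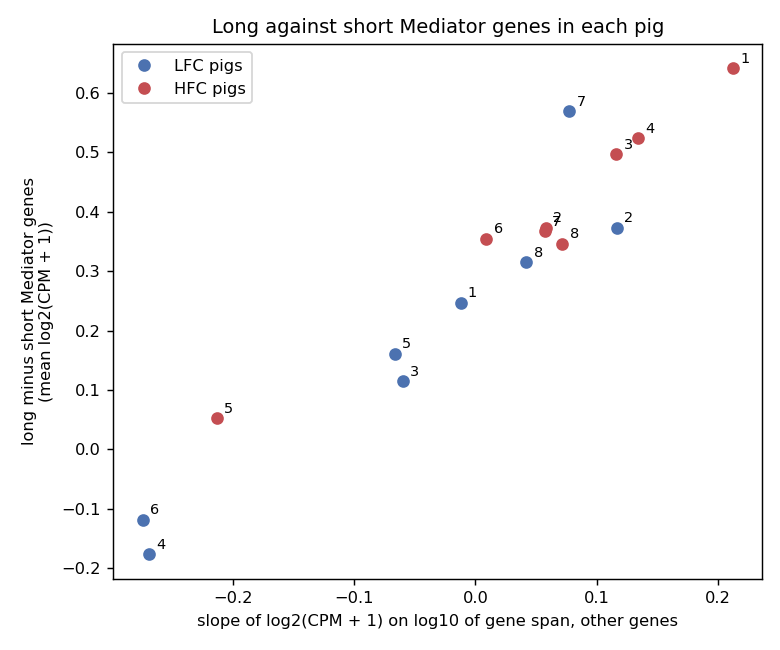
Mean log2(CPM + 1) of long minus short Mediator genes (vertical axis) against the slope of log2(CPM + 1) on log10 of gene span over other genes (horizontal axis), 1 point per pig with its replicate number. LFC replicates 4 and 6 and HFC replicate 5 stand at the lower left, with slopes of -0.21 or less.

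Other genes of transcription by RNA polymerase II were counted from lists, to be read beside the 8.01% of all genes tested that were higher in the HFC pigs at an unadjusted p of 0.05 or less and the 3.47% that were higher in the LFC pigs. Of 12 genes of the polymerase itself 10 were tested, 1 was higher in the HFC pigs and 2 in the LFC pigs at an unadjusted p of 0.05 or less, and the median log2 fold change was -0.23. POLR2A, its largest subunit, which carries the repeat tail that the Mediator kinases can phosphorylate, had the largest difference (0.63, SE 0.25), with 78.8 ± 34.6 CPM in the LFC pigs and 122 ± 30.4 CPM in the HFC pigs (SD, n = 8). Of 31 general transcription factor genes 27 were tested, with 1 and 3 at that level and a median of -0.07, and TAF9 differed most (-0.33). All 16 genes of pause release were tested, with 2 and 2 and a median of 0.13, led by AFF4 (0.42), a scaffold of the super elongation complex. Of 14 Integrator genes 12 were tested, with 2 and 0 and a median of -0.03, led by INTS1 (0.51). Of 12 nuclear receptor genes whose products bind MED1 11 were tested, with 0 in either direction and a median of 0.01. PPARA differed most (0.28, SE 0.29), but it had the lowest expression of these genes, with means of 1.20 CPM in LFC and 1.44 CPM in HFC pigs. The thyroid hormone receptor gene THRA had a log2 fold change of -0.03 and THRB of 0.22. No gene of these lists was called.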

How the data were processed

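Whole pituitaries of 16 Złotnicka White gilts (8 LFC and 8 HFC, grouped by the labels' entries low_FCR and high_FCR, which stand under a tag named shear force and were read as feed conversion) were sequenced from unstranded libraries. Reads were trimmed and aligned by the authors to the Sscrofa11.1 assembly under Ensembl gene models, and the deposited counts per gene and pig are whole numbers without normalization. The labels list RSEM and STAR, and the methods also name Bowtie 2, so which aligner made the counts is not settled. The deposited comparison also holds group means, ratios, log2 ratios and p-values, which were not used; symbols, positions and spans were taken from it. All 16 count columns belonged to these pigs. Replicates were separate animals, and the chi-square over its degrees of freedom was 11.8 or more for any pair within a group, so no library was a copy of another.

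Counts were tested with edgeR 4.0.16 in R 4.3.3 (TMM scaling, at least 10 counts in 8 or more pigs, quasi-likelihood F test, Benjamini-Hochberg adjustment over 13667 genes). Genes were called at an adjusted p of 0.05 or less with a fold change of 1.3 or more. Standard errors came from the F statistic. CPM and log2(CPM + 1) were computed here. Paralogue balances were tested over all 12870 splits of the pigs, and correlations with 100000 resamples over 16 pigs or exactly over 8. Depth per pig was 6010629 to 11794256 counts. The members, modules and other gene lists were chosen with earlier results of these data known. Each member is named; full values are given for the kinase module, MED14, members with an unadjusted p of 0.05 or less, and the extremes of the head, middle and tail. Alternatives were DESeq2 1.42.0, limma 3.58.1 voom, other scalings and filters, a replicate block, a span correction (lowess per pig) and each pig left out, with the 13-pig fit and RefSeq spans added after the data were seen. All 28 members matched the reference gene table. Tests were tested on simulated data. No sequences are shown, as no sequence table was used here. A few genes of the lists are not reported here.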

Additional observations from a re-analysis of the deposited data

Results flagged for a closer look

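In 10 of 64 sets of 8 pigs (each of the 28 members, the 3 paralogue balances and the long minus short value, in each group) 1 pig stood far from the others. A single set passes this rule by chance about 1 time in 20. The sets share the same pigs and genes and are not independent, so the count of 10 was not tested against that rate. HFC replicate 5 was that pig in 7 sets. On the log2(CPM + 1) scale it was above the other HFC pigs for MED6 (5.24, the next pig at 4.39), MED11 (4.62, next 3.90) and CCNC (6.49, next 5.63). It was below them for MED15 (4.96, next 5.57), MED24 (5.14, next 5.86), MED16 (4.99, next 5.37) and CDK8 (3.58, next 4.02). LFC replicate 7 was low for MED10 (4.00, next 4.32) and MED9 (3.73, next 4.63), and LFC replicate 6 was high for MED19 (5.18, next 5.00). HFC replicate 5 had the fewest counts of the 16 pigs (6010629), a slope on gene span of -0.21 and 1096 CPM of blood and endothelium markers, and the part of these in its Mediator values was not tested.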

How the results depend on the processing

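In each of 28 alternatives 0 Mediator genes were called, and over all genes 0 were called except in DESeq2, which called 29. Of 728 values of single members under the alternatives, 725 kept their sign, and the smallest adjusted p was 0.089. The sign turned for CDK8 with the span correction (-0.0074) and for CDK19 without HFC replicate 3 (0.013) and without HFC replicate 8 (0.023), with a range from -0.11 to 0.023 over the fits that leave out 1 pig. The 6 members higher in the HFC pigs at an unadjusted p of 0.05 or less became 3 with total library scaling and 3 to 8 over the fits that leave out 1 pig. The 2 members higher in the LFC pigs became 5 with limma voom, 5 with total library scaling, 4 with upper-quartile scaling, 1 with the span correction and 2 to 9 with each pig left out. With the replicate block 1 was higher in the LFC and 6 in the HFC group. The replicate numbers did not pair the pigs, since correlations of same-numbered pairs ran from -0.34 to 0.37 with 3 of 8 over 0.1, and 0 of 8 LFC pigs correlated best with their own number. The median log2 fold change of the members ran from -0.095 (without HFC replicate 6) to -0.016 with each pig left out. The long minus short difference (0.11 to 0.27), the kinase module median (0.14 to 0.30) and the 3 paralogue balances kept their direction under each alternative. The cause of these moves was not tested. Standard errors of the members ran from 0.075 to 0.212, and MED22, with the fewest counts (31 in its lowest pig), had 0.126; a limit set by depth was not tested.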
